A study of Homo sapiens with 4 samples.

Results

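The data examined here are the reverse phase protein array (RPPA) levels of the catalytic subunit of protein kinase A (PKA), of the transcription factor CREB and of glycogen synthase kinase 3 (GSK-3) in glioma cells exposed to salmon calcitonin (sCT), a peptide ligand of the calcitonin receptor (CTR). RPPA spots cell lysates onto coated slides and reads one antibody per slide. Every antibody of the panel to these proteins, total or phosphorylated site, was taken by its name, which gave 6 of 440 antibodies. They were the total-protein antibodies PKA-a, CREB, GSK-3a-b (both isoforms) and GSK-3B (the beta isoform), and 2 site antibodies. CREB_pS133 recognises CREB phosphorylated at S133 (written CREB pS133), and GSK-3a-b_pS21_S9 recognises GSK-3 phosphorylated at S21 of the alpha or S9 of the beta isoform (GSK-3 pS21/S9). No antibody of the panel named a phosphorylated site of PKA.

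All 4 samples came from LN229, an established human glioblastoma line, without a change of genotype: 2 untreated samples labelled 0 min and 2 samples given 300 nM sCT for 60 min. The series describes the treatments as biological duplicates. The control samples carry no 60 min label, so sCT and the time of incubation cannot be told apart. The deposited values are linear relative levels, scaled so that the median over the panel was close to 1 in each sample, so a level compares samples for one antibody and not antibodies with each other, and the line's identity could not be checked from them. A lysate also averages over its cells, so that a lower level per cell and fewer cells with the protein cannot be told apart.

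CTR couples to stimulatory G proteins and adenylate cyclase. Cyclic AMP releases active catalytic subunits of PKA, which can phosphorylate CREB at S133 and, in some cells, GSK-3 at S21/S9. Phosphorylation of S133 lets CREB recruit its co-activators CBP and p300, and other kinases (p90RSK, MSK, AKT, CaM kinases) use the same residue. GSK-3 differs from most kinases in being active in resting cells, and phosphorylation at S21/S9, best known as an AKT site, restrains it.

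After 60 min of sCT, both phosphorylated sites were lower by several fold while total CREB and total GSK-3a-b were not lower. CREB pS133 fell to 24.4% and GSK-3 pS21/S9 to 32.0% of the untreated level. The catalytic subunit of PKA fell to 79.4% and GSK-3B to 66.3%, total CREB rose to 123% in the deposited scaling, and GSK-3a-b, at 116%, did not pass the test. Groups were compared on the log2 scale with limma, a linear model that pools information on the spread over the panel, and p-values were adjusted by Benjamini-Hochberg for 440 tests. At an adjusted p of 0.05, 5 of the 6 antibodies were called, 4 lower and 1 higher. Over the whole panel 55% were called, 33.6% lower and 21.4% higher. The groups did not overlap for 6 of the 6, and for 85.9% of the panel, so the absence of overlap does not set these proteins apart.

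**Figure D1:**
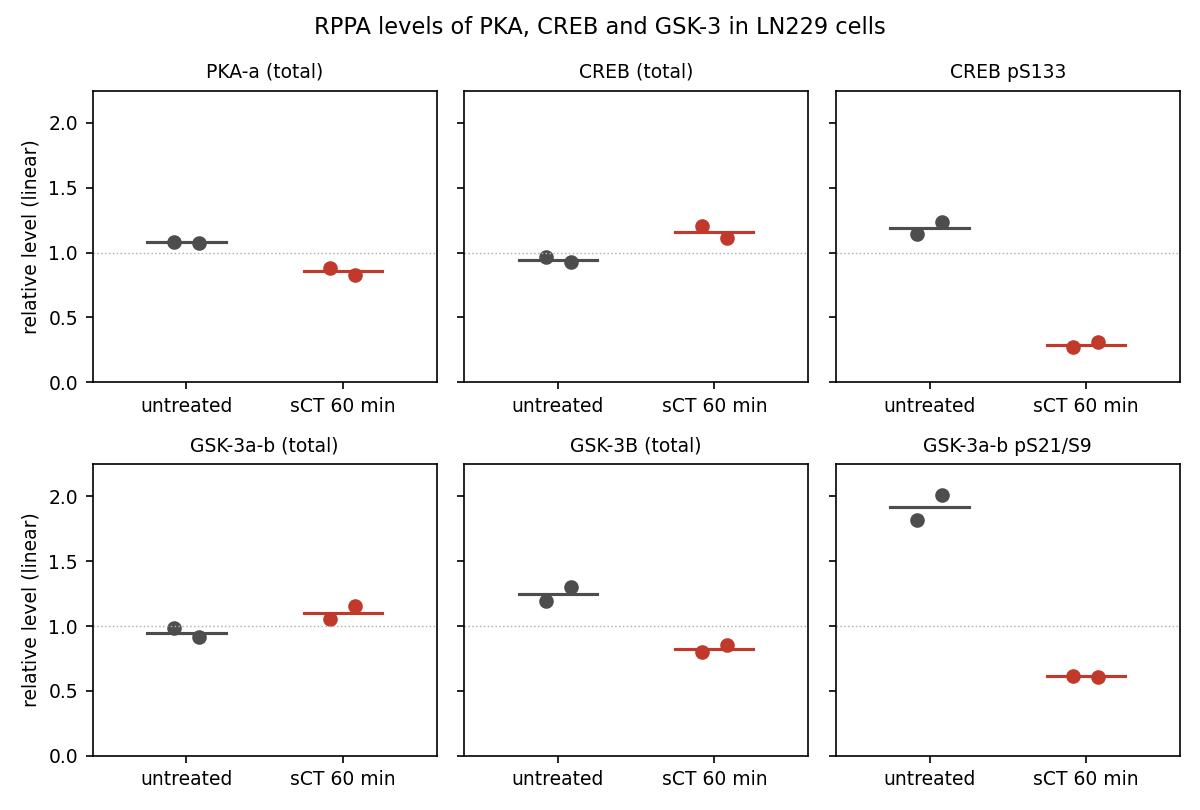
Relative level (linear scale, y axis from 0) of each antibody in the 2 untreated (grey) and 2 sCT-treated (red) LN229 samples. Points are samples, horizontal bars are group means, and the dotted line is a level of 1. CREB pS133 lay between 0.273 and 0.306 after sCT against 1.14 and 1.24 before, and GSK-3 pS21/S9 near 0.61 against 1.82 and 2.01.

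The antibody PKA-a recognises the catalytic subunit of PKA, the kinase that cyclic AMP sets free. Its level was 1.08 in both untreated samples, and 0.883 and 0.829 in the sCT-treated samples. Both sCT-treated samples were thus below both untreated samples, by more than the replicates differed. The log2 fold change was -0.33 (SE 0.05, 95% interval -0.47 to -0.20, adjusted p = 0.00603). It was called without each of the 4 samples in turn, with log2 fold changes of -0.38 to -0.29. This antibody reads the amount of the subunit and not its activity.

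Total CREB moved the other way. Its level was 0.962 and 0.925 in untreated cells and 1.21 and 1.11 after sCT, and the log2 fold change was 0.30 (SE 0.06, 95% interval 0.14 to 0.45, adjusted p = 0.0125). The rise was small, and whether it was called depended on the samples and the scaling. It did not pass once untreated replicate 2 was left out (adjusted p = 0.0664) or once sCT replicate 1 was (0.0702). The 6 loading controls, antibodies to housekeeping proteins, did not move alike, and their median log2 fold change was 0.14. Vinculin (0.04), COX IV (0.12) and histone H3 (-0.15) were not called. The other 3 (GAPDH, beta-actin and cyclophilin F) were called higher after sCT and 0 lower, which is 50% called against 55% of the panel. Of these 3 calls, that of beta-actin was lost with any 1 of the 4 samples left out (adjusted p 0.0828 to 0.176) and that of GAPDH with sCT replicate 2 left out (0.0503). With each sample centred on these 6 antibodies, which lowered the log2 fold change of every antibody by 0.15, total CREB stood at 0.15 (adjusted p = 0.121).

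CREB pS133, the form that binds co-activators, had levels of 1.14 and 1.24 in untreated cells and of 0.273 and 0.306 after sCT. The highest sCT-treated sample was well under the lowest untreated sample. The group means were 1.19 ± 0.0676 (SD, n = 2) and 0.290 ± 0.0231 (SD, n = 2), a 4.10-fold lower level (log2 fold change -2.04, SE 0.08, 95% interval -2.24 to -1.83, adjusted p = 0.000141). Among all 440 antibodies this was the fall of rank 5, and among the 88 antibodies to phosphorylated sites that of rank 3. Quantile normalization, which gives all samples one distribution of levels, moved the log2 fold change by more than any other setting on this scale, to -1.36 (adjusted p = 0.00152).

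GSK-3 was read by a pair of total antibodies, and they did not move alike. GSK-3a-b had levels of 0.986 and 0.914 in untreated cells and 1.05 and 1.16 after sCT, so that the sCT-treated samples were slightly above the untreated ones. Its log2 fold change of 0.22 (SE 0.07, 95% interval 0.03 to 0.41) had an unadjusted p of 0.0330 and an adjusted p of 0.0585 in limma. GSK-3B had levels of 1.19 and 1.30 in untreated cells and 0.801 and 0.851 after sCT, giving a log2 fold change of -0.59 (SE 0.07, 95% interval -0.77 to -0.42, adjusted p = 0.00210). The fall of GSK-3B was called without each sample in turn and under every scaling tried. The intervals of these 2 antibodies did not overlap. Within a sample, GSK-3B over GSK-3a-b was 1.21 and 1.43 in untreated cells and 0.762 and 0.736 after sCT (exact permutation test, two-sided, p = 0.333, the smallest that 2 samples against 2 allow). No antibody of the panel named the alpha isoform alone, so its level was not read.

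GSK-3 pS21/S9, the restrained form of the kinase, had levels of 1.82 and 2.01 in untreated cells and of 0.614 and 0.610 after sCT. The sCT-treated samples differed from each other far less than the untreated samples did. The group means were 1.92 ± 0.136 (SD, n = 2) and 0.612 ± 0.00322 (SD, n = 2), a 3.13-fold lower level (log2 fold change -1.65, SE 0.06, 95% interval -1.81 to -1.48, adjusted p = 0.000141). This was the fall of rank 19 on the panel and of rank 5 among the sites. The antibody does not separate S21 of the alpha isoform from S9 of the beta isoform, so the share of each isoform in the fall cannot be told apart.

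**Figure D2:**
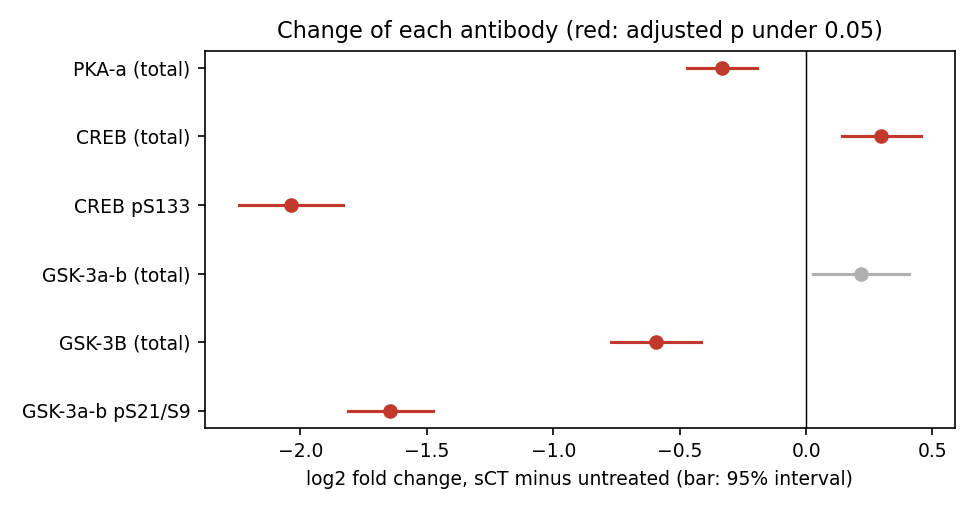
Log2 fold change of each antibody (x axis, sCT-treated minus untreated; points, with bars for the 95% interval from limma, 2 samples per group). Red marks an adjusted p under 0.05 and grey the GSK-3a-b antibody, which did not pass. The sites of CREB and GSK-3 lie at -2.04 and -1.65, far below the 4 totals, which lie between -0.59 and 0.30.

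To set each site against its protein, the level of the site was divided by that of the total within each sample, which cancels any factor common to the whole sample. The panel held 51 sites with a total antibody of the same name, on 46 totals, and all 51 were fitted together. CREB pS133 over total CREB was 1.18 and 1.34 in untreated cells and 0.227 and 0.275 after sCT. This was a 5.04-fold lower ratio, further apart than the levels of the site alone (log2 change -2.33, SE 0.12, 95% interval -2.63 to -2.04, adjusted p = 4.30e-05 over 51 pairs). GSK-3 pS21/S9 over GSK-3a-b was 1.85 and 2.20 in untreated cells and 0.584 and 0.527 after sCT, a 3.63-fold lower ratio (log2 change -1.86, SE 0.11, 95% interval -2.13 to -1.59, adjusted p = 4.49e-05). Over GSK-3B, which itself fell, the same site gave 1.53 and 1.54 in untreated cells and 0.767 and 0.716 after sCT. That was a 2.07-fold lower ratio (log2 change -1.05, SE 0.07, adjusted p = 5.02e-05), so the choice of the total changed the size of the fall in GSK-3 phosphorylation by more than 1.5 times and left its direction.

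Ratios of site to total moved in both directions over the panel. Of the 51 pairs 74.5% were called, 20 lower (39.2%) and 18 higher, with a median log2 change of -0.06. Ordered from the lowest, CREB stood at rank 2 and GSK-3 at rank 4 of the 51. An exact permutation test of either ratio alone cannot go below its p of 0.333.

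**Figure D3:**
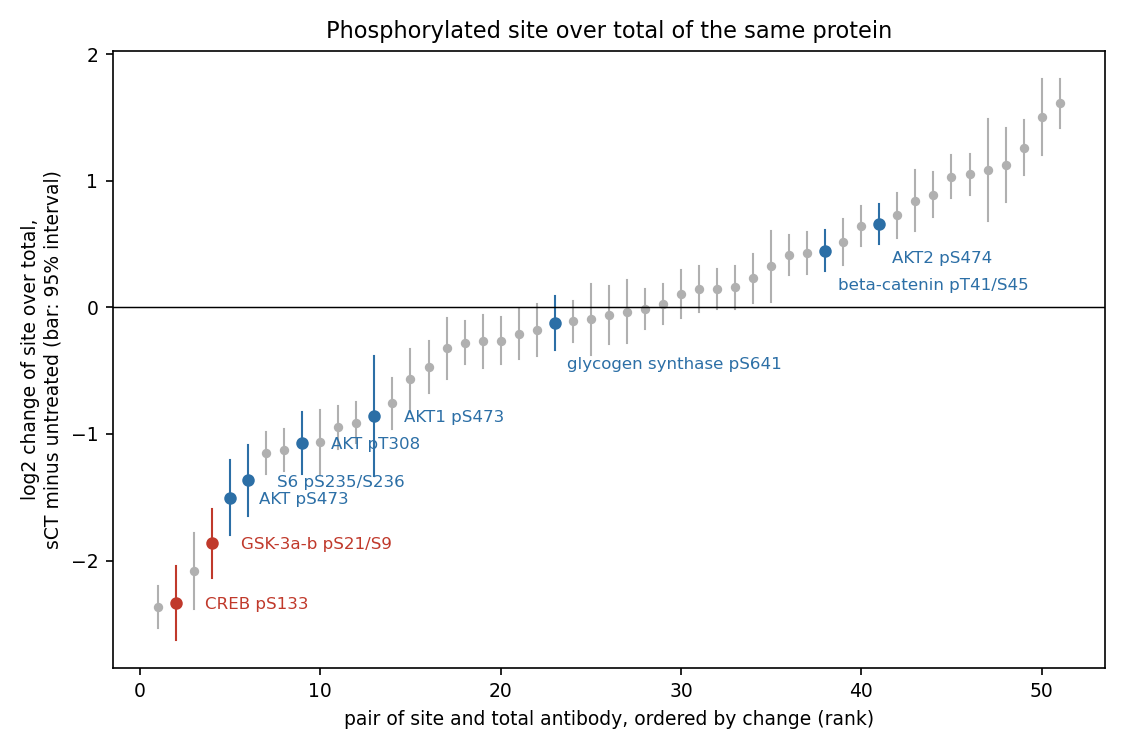
Log2 change of site over total (y axis, sCT-treated minus untreated; bars, 95% interval from limma) for the 51 pairs, ordered by change from rank 1 (x axis). CREB pS133 and GSK-3 pS21/S9 (red) stand at ranks 2 and 4, blue marks named sites of related proteins, and grey the other pairs.

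The antibodies whose levels ran most like those of both sites over the 4 samples were named by the distance between log2 levels, each taken relative to its own mean. For CREB pS133 they included total myosin IIa (distance 0.14) and the mismatch repair protein MSH6 (0.17). For GSK-3 pS21/S9 they were the transcription factor FOXM1 (0.10), the kinase WEE1 (0.11) and the glycohydrolase PARG (0.11). All 5 named are total-protein antibodies. The distance between CREB pS133 and GSK-3 pS21/S9 themselves was 0.41. With 4 samples in 2 groups, such a distance mostly compares the size of the difference between groups.

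Antibodies to kinases known to phosphorylate CREB at S133 or GSK-3 at S21/S9 were called in both directions. The share of their sites that was called was near that of all sites. PKA-a, a member, was not counted among them, and neither was any antibody to MSK or CaM kinases. Of 17 such antibodies, 2 were called higher and 6 lower (47.1% called, median log2 fold change 0.02, against 55% and a median of 0.02 over the panel). Of the 9 to sites, 0 were called higher and 5 lower (55.6% called, median log2 fold change -0.35). Of all 88 sites, 9 were called higher and 42 lower (58% called, median -0.16). Of the 8 totals, 2 were called higher and 1 lower (37.5% called, median 0.12, against 54.3% of all totals). The 6 lower ones were 4 antibodies to AKT, one to p90RSK and one to PKC beta II phosphorylated at S660, and the call of the last was lost without untreated replicate 2, without either sCT replicate and with the replicate block (adjusted p 0.0541 to 0.0938). AKT phosphorylated at S473, the mark left by mTORC2, went from 1.37 and 1.67 to 0.531 and 0.559 (log2 fold change -1.47, adjusted p = 0.000523). AKT phosphorylated at T308, the PDK1 site, went from 1.32 and 1.53 to 0.676 and 0.706 (log2 fold change -1.04, adjusted p = 0.000702). Total AKT stayed within 1.04 to 1.08 in all 4 samples, and its groups overlapped (log2 fold change 0.03, 95% interval -0.09 to 0.15, adjusted p = 0.590). Over total AKT, S473 was 2.83-fold lower (adjusted p = 0.000104) and T308 2.10-fold lower (adjusted p = 0.000197). The GSK-3 site was 3.63-fold lower over GSK-3a-b and 2.07-fold lower over GSK-3B.

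The isoforms of AKT did not run in parallel. The log2 fold change was -0.81 for AKT2 (adjusted p = 0.000486) and 0.19 for AKT1 (adjusted p = 0.0223). The call of AKT1 was lost without untreated replicate 2 or either sCT replicate, with adjusted p of 0.0813, 0.0987 and 0.115, and with centring on the loading controls (0.03, adjusted p = 0.612). AKT1 phosphorylated at S473 had a log2 fold change of -0.67 (adjusted p = 0.0359), which did not pass with either sCT replicate left out (adjusted p of 0.176 without the first and 0.114 without the second), on linear levels (0.0603) or under quantile normalization (-0.56, adjusted p = 0.0554). AKT2 phosphorylated at S474 was at -0.15 (95% interval -0.30 to -0.01, adjusted p = 0.0693). It was called lower with centring on the loading controls (-0.30, adjusted p = 0.00857), with trended and robust eBayes (0.0421) and with the replicate block (0.0426). Over the lower AKT2 total its ratio was higher by 0.66 on the log2 scale (adjusted p = 0.000212).

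p90RSK phosphorylated at T573, a mark set by ERK, went from 1.41 and 1.86 to 0.924 and 0.984 (log2 fold change -0.76, adjusted p = 0.0104). Its call was lost with either sCT replicate left out (adjusted p of 0.0788 without the first and 0.0605 without the second). Total RSK was at 0.09 (adjusted p = 0.161), p70 S6 kinase at -0.17 (adjusted p = 0.0790, and called lower without untreated replicate 2 or with centring on the loading controls, at 0.0417 and 0.0202) and its T389 site at 0.05 (95% interval -0.06 to 0.17, adjusted p = 0.330).

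Among 11 antibodies to the kinases that switch these on, 3 were called higher and 6 lower (81.8% called, against 55% of the panel, median log2 fold change -0.29). The mTORC2 subunit Rictor fell by 0.71 (adjusted p = 0.000419) and PDK1 phosphorylated at S241 by 0.57 (adjusted p = 0.00150) on the log2 scale. The 3 called higher were total ERK (log2 fold change 0.38, adjusted p = 0.00378), total p38 (antibody p38-MAPK, 0.20, adjusted p = 0.0187) and a site of ERK. With centring on the loading controls p38-MAPK was no longer called (0.05, adjusted p = 0.475). ERK phosphorylated at T202/Y204 had levels of 2.96 and 3.85 in untreated cells and 6.88 and 5.42 after sCT. This was opposite to the sites of CREB, GSK-3 and p90RSK (log2 fold change 0.86, adjusted p = 0.0132). No ratio of this site to total ERK was fitted, as the antibody names differ, so part of the rise may lie in the total. The call of this ERK site was lost with replicate 1 of either group left out and under quantile normalization (0.18, adjusted p = 0.322).

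A list of other sites that PKA is known to be able to phosphorylate had 3 on the panel, and all 3 were lower, like CREB pS133. The list need not cover every such site and was chosen with earlier results of these data known. BAD pS112, a site that frees BCL2 proteins from BAD, went from 1.16 and 1.23 to 0.431 and 0.481 (log2 fold change -1.39, adjusted p = 0.000218). S6 pS235/S236, on the small ribosomal subunit, went from 0.831 and 0.890 to 0.302 and 0.344 (log2 fold change -1.42, adjusted p = 0.000303), and under quantile normalization it was at -0.51 (adjusted p = 0.0856). ACLY pS455, on the enzyme that makes cytosolic acetyl-CoA, went from 0.974 and 0.923 to 0.616 and 0.669 (log2 fold change -0.56, adjusted p = 0.00203). AKT or ribosomal S6 kinases can also phosphorylate these residues. Over total S6, pS235/S236 was 2.58-fold lower (limma, adjusted p = 0.000108). BAD and ACLY had no total antibody of the same name to pair with, so their sites were not set against the amount of protein. Over all 88 sites 42 were called lower and 9 higher.

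Antibodies to substrates of GSK-3 moved in both directions. Of 11 antibodies, 3 were called higher and 3 lower (54.5% called, near the 55% of the panel, median log2 fold change 0.08), and with centring on the loading controls 1 was higher and 5 lower. Glycogen synthase, the enzyme for which GSK-3 is named, was higher as total (log2 fold change 0.40, adjusted p = 0.00278). Its GSK-3 site S641 went from 1.06 and 1.02 to 1.33 and 1.20 (log2 fold change 0.27, adjusted p = 0.0243), a call lost with any sample but sCT replicate 2 left out (adjusted p 0.0696 to 0.108) and with centring on the loading controls (0.12, adjusted p = 0.221). Per total glycogen synthase, S641 was 1.27 and 1.16 in untreated cells and 1.17 and 1.06 after sCT, so that the groups overlapped (log2 change -0.13, 95% interval -0.34 to 0.09, adjusted p = 0.220). This ratio thus moved by much less than the ratio of GSK-3 itself.

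Total beta-catenin, which GSK-3 marks for degradation, went from 1.13 and 1.07 to 0.774 and 0.786 (log2 fold change -0.49, adjusted p = 0.00160). Its antibody to T41/S45, of which T41 is a GSK-3 site and S45 is the priming site of casein kinase 1, was at -0.05 (95% interval -0.16 to 0.07, adjusted p = 0.380), and at -0.20 (adjusted p = 0.0251) with centring on the loading controls. Per total beta-catenin this site was therefore higher, from 0.926 and 0.961 to 1.29 and 1.27 (log2 change 0.45, adjusted p = 0.00133). Snail, another substrate of the list, had a log2 fold change of -0.54 (adjusted p = 0.000945). Of the rest of the list, cyclin E1 was called higher (log2 fold change 0.27, adjusted p = 0.00674) and MCL1 lower (-0.38, adjusted p = 0.00231). Cyclin E1 was no longer called with centring on the loading controls (0.12, adjusted p = 0.109). c-Myc, cyclin D1, NRF2 and tau were not called, although c-Myc was lower with that centring (-0.24, adjusted p = 0.0107).

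**Figure D4:**
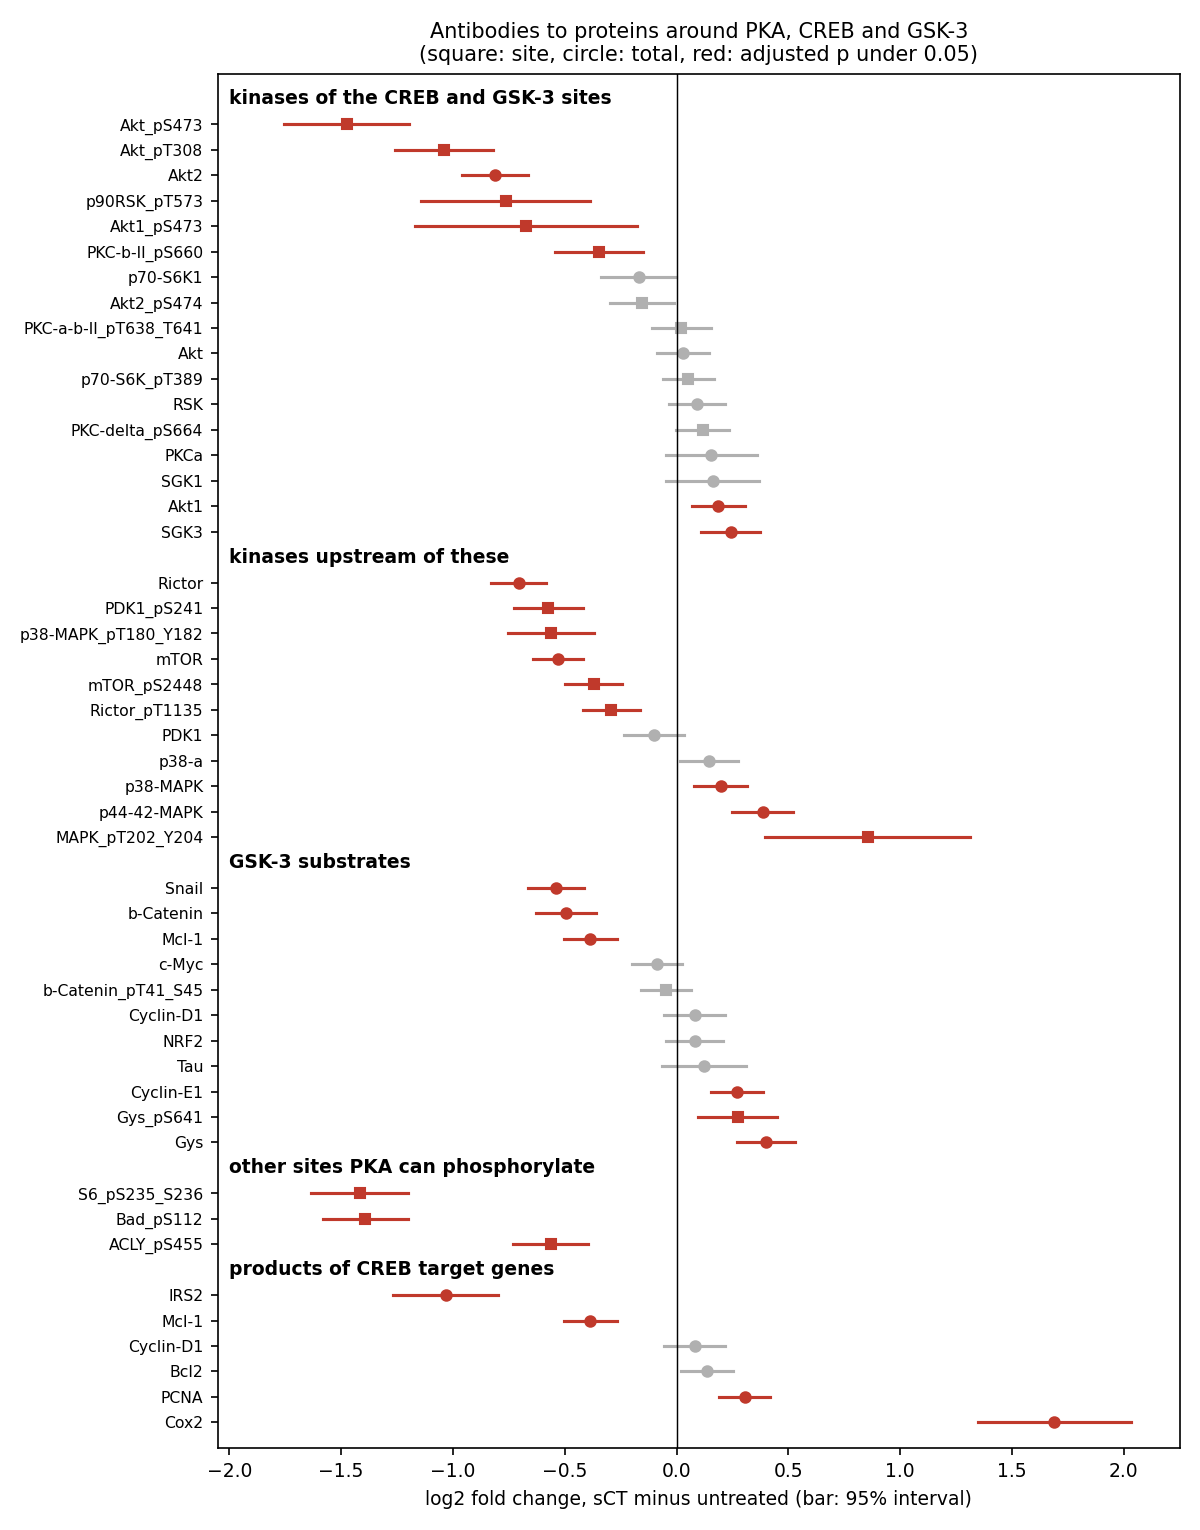
Log2 fold change (x axis, sCT-treated minus untreated) of the antibodies around PKA, CREB and GSK-3, by list. Squares are sites, circles totals, bars the 95% interval from limma, and red an adjusted p under 0.05. AKT pS473 (-1.47), BAD pS112 (-1.39) and S6 pS235/S236 (-1.42) lie lowest, and COX2 (1.69) highest.

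Products of genes known as CREB targets moved in both directions while CREB pS133 fell. Of 6 antibodies 2 were called higher (COX2 and PCNA) and 2 lower (IRS2 and MCL1), with a median log2 fold change of 0.11 (66.7% called, against 55% of the panel). PCNA was no longer called with centring on the loading controls (adjusted p = 0.0555). COX2, the inducible prostaglandin synthase, had levels of 1.04 and 0.836 in untreated cells and 3.22 and 2.80 after sCT, the highest rise on the panel (log2 fold change 1.69, adjusted p = 0.000637). IRS2, an insulin receptor adaptor, went from 0.864 and 0.942 to 0.412 and 0.474 (log2 fold change -1.03, adjusted p = 0.000868), and under quantile normalization it was at -0.45 (adjusted p = 0.0796). MCL1, which blocks apoptosis, had a log2 fold change of -0.38 (adjusted p = 0.00231).

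CREB binds the palindrome TGACGTCA or its half-site CGTCA. In RefSeq promoter windows (GRCh38.p14, 250 bases before to 50 after a gene start), read on both strands, 24.6% of 35116 windows held the half-site and 1.85% the palindrome, each occurrence of which also counts as a half-site. Windows were at hand for 4 of the 6 genes, and for 3 of these (PTGS2, BCL2 and PCNA, not IRS2) a window held the half-site and 0 held the palindrome. This counts genes with any such window, and PCNA had 2 windows, so it does not compare directly with the share of windows. The genes were listed as known CREB targets. The stretch before PTGS2, the gene of COX2, is shown because COX2 rose while CREB pS133 fell. It lies at chr1:186680444-186680503 on the minus strand, 80 to 21 bases before the gene start, with the half-site in capitals.
PTGS2: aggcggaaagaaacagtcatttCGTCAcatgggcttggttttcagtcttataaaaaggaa
The half-site begins 58 bases before the start. The match describes the sequence, and binding of CREB was not measured.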

How the data were processed

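The authors deposited one linear ratio (relative level) per antibody and sample. Per the paper's methods, dilution series of the lysates were spotted on nitrocellulose, stained with one primary antibody per slide by a DAB reaction and read as spot intensities. The steps from intensities to ratios are not given in the sources used here, and how far a signal stood above background is unknown. The number of samples limits the precision.

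All ratios were above 0 and were taken to log2 with no pseudocount, and no antibody was left out. The comparison of sCT-treated with untreated samples used limma 3.58.1 and R 4.3.3 (lmFit, eBayes, no covariates, 2 residual and 2.59 prior degrees of freedom, two-sided, Benjamini-Hochberg). Ratios of site to total were fitted the same way over 51 pairs matched by name, ignoring case and hyphens. The steps were tested on simulated data. All adjusted p-values are from limma.

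The members and lists were chosen with earlier results of these data known. The antibodies given with values were all members, those to AKT, p90RSK, p70 S6 kinase, glycogen synthase and beta-catenin, the sites PKA can phosphorylate, COX2, up to 3 called antibodies per list with the largest change, and the 3 nearest in pattern to each site, of which 1 is not reported here. PCNA, PKC beta II, cyclin E1, c-Myc, cyclin D1, NRF2 and tau were named after their values were seen, to spell out small counts. So were total ERK, total p38, GAPDH, beta-actin, cyclophilin F, vinculin, COX IV and histone H3. The alternatives were linear levels, quantile normalization, median centring, centring on 6 loading controls each relative to its own mean, trended and robust eBayes, a filter that drops the 10% of the panel with the lowest mean levels, omission of each sample, the replicate number as a block, and GSK-3B as the total. Promoter sequences came from RefSeq. Protein sequences were not used here.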

Additional observations from a re-analysis of the deposited data

How the results depend on the processing

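CREB pS133, GSK-3 pS21/S9, GSK-3B and PKA-a kept their direction and call under every setting in which they were fitted. Both ratios of site to total kept their direction under every setting run, and their call under those settings whose p-values were used. CREB pS133 is itself among the 10% of the panel that the filter on low mean levels drops, so that filter gave no value for it. The mean included the sCT-treated samples, so the filter tends to drop antibodies that fell. It took the calls from 148 to 110 lower and from 94 to 93 higher. As levels do not compare antibodies, it does not test low abundance. Total CREB (0.30) was 0.15 and no longer called with centring on loading controls, and 0.24 to 0.35 with a sample left out. GSK-3a-b (0.22) was called only with trended and robust eBayes (0.22, adjusted p = 0.0347). With centring on loading controls 36 antibodies of the panel were called higher, against 94, and 195 lower, against 148. Without untreated replicate 2, sCT replicate 1 or sCT replicate 2 the higher counts were 55, 38 and 43. With centring on loading controls 0 of the kinases of the sites were higher (from 2), and 1 was with untreated replicate 2 left out and 0 with either sCT replicate left out. GSK-3 substrates had 1 higher and 5 lower (from 3 and 3) and CREB target products 1 higher (from 2) under that centring. Kinases of the sites called lower dropped from 6 to 3 without either sCT replicate, and their upstream kinases called higher from 3 to 1 without untreated replicate 1 or sCT replicate 1. CREB target products called lower went from 2 to 1 under quantile normalization and under the filter on mean levels, which leaves out IRS2. The causes were not tested.

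The replicate numbers are not stated to pair the samples, and with 2 pairs they were not taken to. The deviations of same-numbered samples from their group means correlated with r = 0.586 across antibodies, which are not independent replicates. With the replicate block, the fitted changes were the same, no call among the 6 antibodies changed (CREB pS133 -2.04, adjusted p = 0.00234; total CREB 0.30, adjusted p = 0.0152), and ERK pT202/Y204 was no longer called (adjusted p = 0.0593). In the fits of 51 ratios with 1 residual degree of freedom (replicate block or a sample left out) limma took the spread of all pairs as equal, so their p-values were not used.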
